A study of Homo sapiens with 6 samples.

Results

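The CIP/KIP and INK4 families of cyclin-dependent kinase (CDK) inhibitors were examined in U-2 OS cells after knock-down of SFPQ, an RNA- and DNA-binding protein of the nucleus. The members are the 7 genes named in the annotation as CDKN1A, CDKN1B and CDKN1C (CIP/KIP) and CDKN2A, CDKN2B, CDKN2C and CDKN2D (INK4), out of 60664 genes in the count table. They were taken by gene identifier and not by a rule on their values, though earlier results of these data were known. U-2 OS is a human osteosarcoma cell line with a polyploid genome, as labelled. One group of cultures received control siRNA (siCTRL) and the other received siRNA targeting SFPQ (siSFPQ), both at 30 nM by lipofection and both in medium with serum, with 3 biological replicates and thus 3 libraries per condition. Poly(A) RNA was sequenced from both ends, and the knock-down was transient in a single cell line, so that the values apply to the mixed population of cells in each culture. In such bulk samples, fewer cells with a transcript and less transcript per cell cannot be told apart.

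CDK inhibitors are small proteins that hold the cell cycle in check by binding CDKs or their complexes with cyclins. INK4 proteins bind CDK4 and CDK6 and keep D-type cyclins from activating them, whereas CIP/KIP proteins bind whole cyclin-CDK complexes, those of CDK2 above all. Active CDK4, CDK6 and CDK2 phosphorylate RB1 and its relatives, which releases E2F transcription factors and lets cells enter S phase. CDKN1A (p21) is induced by DNA damage, CDKN1B (p27) is controlled largely through its degradation, and CDKN2A (p16 and, from another first exon, ARF) is often silenced in tumour cell lines. U-2 OS cells are known for a silent CDKN2A locus.

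After SFPQ knock-down, CDKN1A rose while CDKN1B, CDKN2B and CDKN2C fell. CDKN1A reached 1.61 times its siCTRL level, and CDKN2C, the member with the largest change, dropped to 51.4% of it. CDKN1B went to 65.4% and CDKN2B to 80.5%. CDKN1C and CDKN2D did not pass the test, and CDKN2A was close to 0 counts in every library. Of the 6 members tested, 1 was thus higher and 3 were lower at an adjusted p under 0.05, while of all 29022 genes tested 22.4% were higher and 22.1% lower by the same rule (the quasi-likelihood test of edgeR, with p-values adjusted by Benjamini-Hochberg over all these genes). None of the 6 passed the stricter rule of the study, which asks in addition for a log2 fold change over 1.5 or under -1.5 and was met by 10.3% of the genes tested. In 4 of the 6 members the siSFPQ libraries lay wholly above or below the siCTRL libraries, a pattern found in 52.3% of all genes tested. The counts of the members in all libraries are shown in the plot of levels by library.

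**Figure D1:**
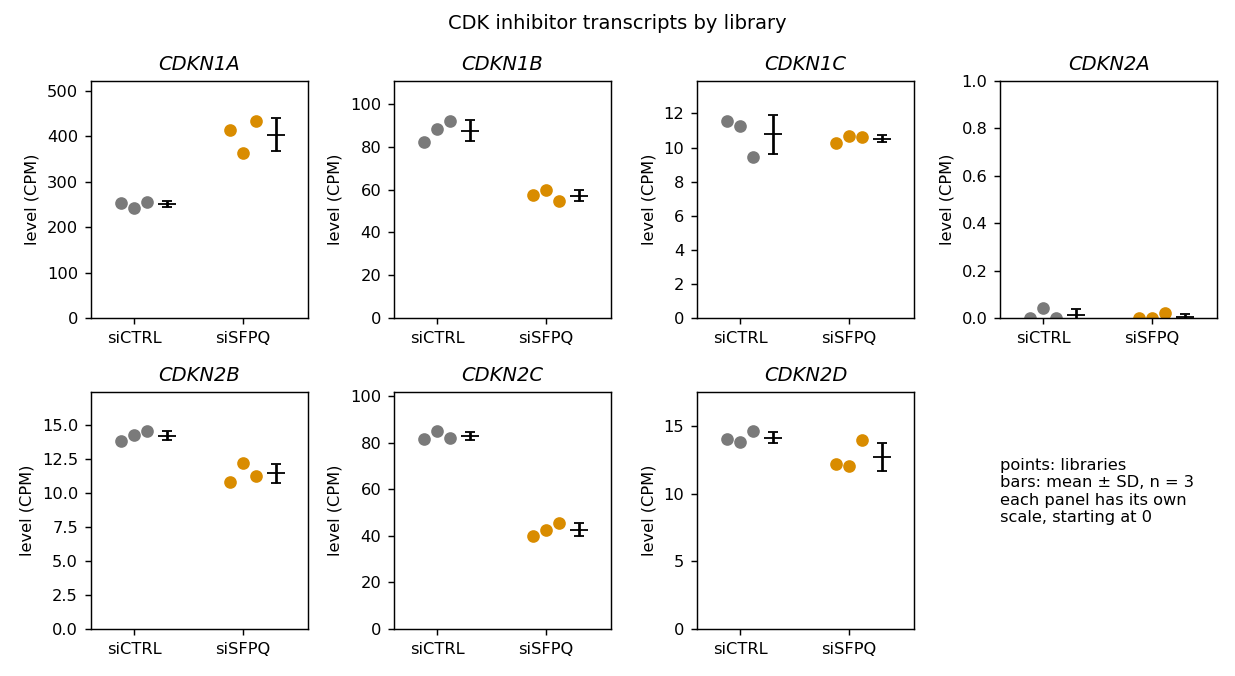
Level of each CDK inhibitor transcript in CPM (counts scaled to the library total, with TMM factors) in the 3 siCTRL and 3 siSFPQ libraries, with the mean ± SD beside the points. CDKN1A lies between 243 and 256 CPM in siCTRL and between 363 and 435 in siSFPQ, whereas CDKN2C falls from 81.6 to 84.9 down to 39.9 to 45.5 CPM and CDKN2A stays near 0.

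The bases before the transcript starts of the members that moved most are shown because the genes share a family but not a direction. RefSeq windows (GRCh38.p14) were at hand for 6 of the 7 members, with 9 windows in all, and were cut to the 250 bases before the start. Capitals mark matches, on either strand, to any of 8 motifs that were searched. These were the GC box GGGCGG, bound by SP1 and its relatives, the CCAAT box, bound by NF-Y, and the E2F motif GGCGGGAA. Of the E-boxes, the letters CACGTG were searched, and so was the form with CAGCTG in its place. The others were the TATA box with the letters TATAAA, the FOXO motif with the letters TGTTTAC, and the CHR element with the letters TTTGAA. GC boxes may overlap each other, and GGCGGGAA may overlap a GC box. The windows are those of CDKN1A (chr6:36678464-36678713, plus strand), CDKN1B (chr12:12717118-12717367, plus strand) and 2 of the 3 starts of CDKN2C. For CDKN2C they are a middle start (chr1:50968456-50968705, plus strand) and the last start (chr1:50969995-50970244, plus strand). The last start is called canonical below, a name that was not checked against the annotated canonical transcript. The window of the first start of CDKN2C, on the side of FAF1 (chr1:50960495-50960744, plus strand), held 1 CACGTG and no other match and is not printed.
CDKN1A: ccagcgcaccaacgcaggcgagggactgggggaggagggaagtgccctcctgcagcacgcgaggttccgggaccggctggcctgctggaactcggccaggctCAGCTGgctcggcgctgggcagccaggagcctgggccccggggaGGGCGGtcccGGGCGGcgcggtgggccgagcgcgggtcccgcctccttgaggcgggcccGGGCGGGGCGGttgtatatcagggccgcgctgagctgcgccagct
CDKN1B: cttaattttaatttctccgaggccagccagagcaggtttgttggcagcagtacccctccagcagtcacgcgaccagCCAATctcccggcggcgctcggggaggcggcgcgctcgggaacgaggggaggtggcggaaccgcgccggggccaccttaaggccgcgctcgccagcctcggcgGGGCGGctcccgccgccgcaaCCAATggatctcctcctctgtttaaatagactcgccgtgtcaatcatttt
CDKN2C, middle start: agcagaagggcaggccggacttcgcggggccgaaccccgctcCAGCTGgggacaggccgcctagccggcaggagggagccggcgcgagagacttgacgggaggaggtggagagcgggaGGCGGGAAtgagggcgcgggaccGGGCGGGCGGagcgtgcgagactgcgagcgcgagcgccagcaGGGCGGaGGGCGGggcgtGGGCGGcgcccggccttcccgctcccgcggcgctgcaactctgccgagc
CDKN2C, canonical start: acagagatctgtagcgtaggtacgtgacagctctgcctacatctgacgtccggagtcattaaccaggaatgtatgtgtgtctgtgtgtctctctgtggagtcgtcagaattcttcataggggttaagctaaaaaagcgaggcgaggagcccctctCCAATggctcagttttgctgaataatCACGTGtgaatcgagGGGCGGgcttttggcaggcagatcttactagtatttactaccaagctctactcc

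The window of CDKN1A, the member that rose, held 4 GC boxes and 1 CAGCTG, with the nearest GC box between 40 and 35 bases before the start. The window of CDKN1B held 1 GC box and 2 CCAAT boxes. For CDKN2C, the middle window held 5 GC boxes, 1 CAGCTG and the only E2F match among the 9 windows of the members, 132 to 125 bases before the start. The window of the last start of CDKN2C, called canonical above, held 1 GC box, 1 CCAAT and 1 CACGTG. Among 35116 RefSeq windows of the same length, a GC box was found in 42.6%, CCAAT in 32%, CAGCTG in 14%, CACGTG in 6.34% and the E2F motif in 2.72%. The TATA, FOXO and CHR letters were in none of the members' windows, against 10.7%, 2.98% and 13.3% of all windows. Matches are given as a description of the sequence.

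Of the CIP/KIP genes, CDKN1A (ENSG00000124762, chromosome 6, 36676460 to 36687337, plus strand) encodes p21, which inhibits cyclin-CDK2 complexes and also binds PCNA. Its counts were 11580, 11137 and 11673 in siCTRL and, after knock-down, 18338, 16963 and 20163, always in the order of the replicate numbers. Each siSFPQ library was above each siCTRL library, and the siSFPQ libraries were spread more widely. The level was 251 ± 6.61 CPM in siCTRL and 404 ± 36.9 CPM in siSFPQ (SD, n = 3 each). On the log2 scale the change was 0.69 (standard error 0.045, 95% interval 0.59 to 0.78, edgeR adjusted p = 1.08e-14). Its exons share 146 bases with DINOL, a lncRNA gene on the other strand that had 0.379 ± 0.0983 CPM in siCTRL and 0.344 ± 0.142 CPM in siSFPQ (SD, n = 3 each). The strand setting of the counting was not given, so that reads from these shared bases cannot be assigned.

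CDKN1B (ENSG00000111276, chromosome 12, 12685498 to 12722369, plus strand) encodes p27, an inhibitor of cyclin-CDK2 complexes that builds up in resting cells. Its counts were 3754, 4029 and 4208 in siCTRL and 2540, 2799 and 2530 in siSFPQ. The siSFPQ libraries all lay below the siCTRL libraries, with levels of 57.2 ± 2.66 and 87.5 ± 5.03 CPM (SD, n = 3 each). The log2 fold change was -0.61 (standard error 0.046, 95% interval -0.71 to -0.52, edgeR adjusted p = 3.57e-13). CDKN1A and CDKN1B thus moved in opposite directions.

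CDKN1C (ENSG00000129757, chromosome 11, 2883213 to 2885775, minus strand) encodes p57, the imprinted member of the family. It had 529, 516 and 432 counts in siCTRL and 456, 499 and 492 in siSFPQ, and the conditions overlapped. The log2 fold change was -0.04, with a 95% interval from -0.21 to 0.14 (edgeR adjusted p = 0.794). On the linear scale the interval ran from 0.863 to 1.10 times the siCTRL level.

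Of the INK4 genes, CDKN2C (ENSG00000123080, chromosome 1, 50960745 to 50974634, plus strand) encodes p18, an inhibitor of CDK4 and CDK6. It had 3724, 3885 and 3743 counts in siCTRL and 1770, 1980 and 2110 in siSFPQ. The highest siSFPQ library was well under the lowest siCTRL library. The level fell from 82.8 ± 1.82 to 42.6 ± 2.80 CPM (SD, n = 3 each). On the log2 scale the change was -0.96 (standard error 0.047, 95% interval -1.06 to -0.86, edgeR adjusted p = 3.59e-18).

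CDKN2B (ENSG00000147883, chromosome 9, 22002903 to 22009305, minus strand) encodes p15, the INK4 protein induced by TGF-beta. Its counts were 631, 651 and 662 in siCTRL and 479, 571 and 521 in siSFPQ. The libraries of the conditions did not overlap, with levels of 14.2 ± 0.347 and 11.4 ± 0.725 CPM (SD, n = 3 each). The log2 fold change was -0.31 (standard error 0.078, 95% interval -0.47 to -0.15, edgeR adjusted p = 0.00122).

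CDKN2D (ENSG00000129355, chromosome 19, 10566460 to 10569059, minus strand) encodes p19, the fourth INK4 protein. It had 641, 630 and 666 counts in siCTRL and 541, 563 and 646 in siSFPQ. In CPM, siSFPQ replicate 3 lay among the siCTRL libraries, with 13.9 CPM against 13.8 to 14.6. The log2 fold change of -0.15 missed the threshold (standard error 0.078, 95% interval -0.31 to 0.01, edgeR adjusted p = 0.12).

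CDKN2A (ENSG00000147889, chromosome 9, 21967752 to 21995301, minus strand) had 0, 2 and 0 counts in siCTRL and 0, 0 and 1 in siSFPQ. All libraries were under the level that 3 counts give, which is 0.0637 to 0.069 CPM at these depths, and with under 10 counts in total the gene was not tested. No transcript of the locus, p16 or ARF, was detectable above that level in either condition, and this limit covers counting error only. CDKN2B-AS1, the antisense lncRNA that overlaps CDKN2A and CDKN2B, was also near the limit, with 8, 3 and 2 counts in siCTRL and 4, 3 and 3 in siSFPQ. MTAP, a gene 30101 bases from CDKN2A, was present at 44.3 ± 4.23 CPM in siCTRL and 43.1 ± 0.983 CPM in siSFPQ (SD, n = 3 each), and did not pass the test.

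**Figure D2:**
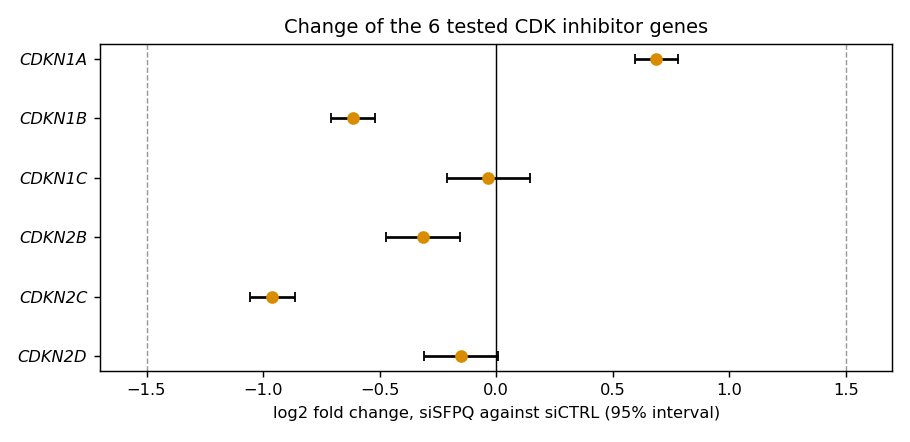
Log2 fold change (siSFPQ against siCTRL) of the 6 members with enough counts, with 95% intervals from the edgeR fit and dashed lines at the thresholds of 1.5 and -1.5. The intervals of CDKN1A, CDKN1B, CDKN2B and CDKN2C leave out 0, those of CDKN1C and CDKN2D hold it, and no interval reaches a dashed line.

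Ratios of counts within a library do not depend on how libraries are scaled. These pairs were chosen after the values were seen and are given without a test. CDKN1A had 3.08, 2.76 and 2.77 counts for each count of CDKN1B in siCTRL and 7.22, 6.06 and 7.97 in siSFPQ, so that the mean ratio rose 2.46-fold. Against CDKN2C, the count ratio of CDKN1A went from 2.87 to 3.12 in siCTRL up to between 8.57 and 10.4 in siSFPQ. Within the INK4 family, the count ratio of CDKN2C to CDKN2D was 5.62 to 6.17 in siCTRL and 3.27 to 3.52 in siSFPQ. In each of these ratios the conditions were separated.

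Levels of different genes were compared per length, as CPM per kilobase of exon (the union of all annotated exons of a gene). In siCTRL, CDKN1A was the most abundant member at 83.8 ± 2.21, followed by CDKN2C at 27.4 ± 0.603. CDKN1B at 9.45 ± 0.544 and CDKN2D at 9.39 ± 0.28 came next and did not differ beyond their spread. CDKN1C at 4.35 ± 0.461 and CDKN2B at 3.55 ± 0.0867 followed, separated in all libraries, and CDKN2A was last (SD, n = 3 each, CPM per kilobase). In siSFPQ the order began with CDKN1A at 135 ± 12.3 and CDKN2C at 14.1 ± 0.928, and CDKN2D at 8.45 ± 0.696 now stood above CDKN1B at 6.18 ± 0.288 in all libraries. The place of CDKN1B depends on the length used, since its annotated exons span 9255 bases and its canonical transcript 2411. Per kilobase of the canonical transcript, CDKN1B came after CDKN1A and CDKN2C in both conditions, at 36.3 ± 2.09 and 23.7 ± 1.10. Per kilobase of coding sequence, CDKN2B stood above CDKN1C, at 28.8 ± 0.705 against 9.87 ± 1.05 in siCTRL (SD, n = 3 each).

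CDKN1A made up 60.7% ± 0.909 of the summed level per kilobase of exon of the 7 members in siCTRL and 78.9% ± 1.55 in siSFPQ, while the share of CDKN2C went from 19.9% ± 0.663 to 8.29% ± 0.635 (SD, n = 3 each). The INK4 genes together fell from between 39.8 and 40.9 to between 24.0 and 27.1 CPM per kilobase, and the CIP/KIP genes together went from between 95.3 and 99.2 up to between 132 and 155. Over all 7 genes the sum was 138 ± 1.76 in siCTRL and 171 ± 12.8 in siSFPQ. With canonical transcript lengths the sums were 258 ± 2.72 and 275 ± 18.0 and overlapped between the conditions, whereas with coding lengths they were 861 ± 13.4 and 1041 ± 74.2 and did not. A higher sum thus depends on the length used. The shift in shares towards CDKN1A follows for any lengths, since CDKN1A alone rose and each gene had the same length in both conditions. Its presence with each of the 3 lengths is thus no separate check.

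**Figure D3:**
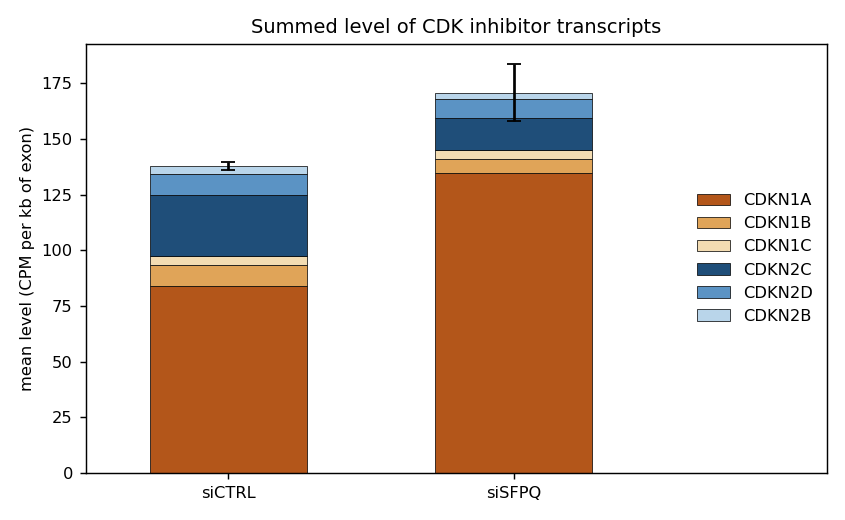
Mean level of the CDK inhibitor transcripts in CPM per kilobase of exon, stacked, for siCTRL and siSFPQ, with the SD of the sum over 3 libraries. CDKN1A (83.8 and 135) takes the larger part of each bar, and the blue INK4 segments shrink in siSFPQ. CDKN2A is too low to be drawn.

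The proteins that the inhibitors bind were mostly lower at the transcript level. Of 13 genes for cyclins and CDKs, 9 were lower, 2 were higher and 2 did not pass the test, with a median log2 fold change of -0.22 beside 0.02 over all genes tested, of which 22.1% were lower and 22.4% higher. CDK6, a target of the INK4 proteins, fell from 358 ± 16.1 to 205 ± 5.37 CPM (log2 fold change -0.80, standard error 0.038, edgeR adjusted p = 2.26e-18). CDK4, the other target, went from 154 ± 0.924 to 139 ± 7.08 CPM (log2 fold change -0.15, edgeR adjusted p = 0.00279), a call that was lost with library size alone as the scaling (adjusted p = 0.0754). CDK2 and CDK1 had log2 fold changes of -0.34 and -0.35. Among the cyclins that activate these kinases, CCND1 (-0.26), CCNE1 (-0.14) and CCNE2 (-0.38) fell on the log2 scale, CCNE1 neither with library size alone (-0.08, edgeR adjusted p = 0.123) nor without siSFPQ replicate 1 (edgeR adjusted p = 0.0555). CCND3, a D-type cyclin, rose from 40.5 ± 2.46 to 71.2 ± 4.51 CPM (SD, n = 3 each), or by 0.81 on the log2 scale.

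The count ratio of CDKN2C to CDK4 was 0.529 to 0.552 in siCTRL and 0.284 to 0.321 in siSFPQ, without overlap. For CDK6, which fell with CDKN2C, the ratio was 0.226 to 0.235 in siCTRL and 0.193 to 0.228 in siSFPQ, and the conditions overlapped.

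Downstream of the kinases, 7 of 13 genes for pocket proteins, E2Fs and their partners were lower, 1 was higher and 5 did not pass the test, with a median log2 fold change of -0.23. Among all genes tested, 22.1% were lower and 22.4% higher, and the median was 0.02. RB1, the pocket protein through which INK4 proteins act, fell from 106 ± 1.96 to 69.1 ± 3.37 CPM (log2 fold change -0.61, edgeR adjusted p = 3.67e-14). Its relative RBL1 fell by 0.36 on the log2 scale. E2F1, an activator of S phase genes, fell from 61.5 ± 1.19 to 51.8 ± 1.58 CPM (log2 fold change -0.25). E2F8, E2F6 and TFDP2 fell by 0.67, 0.45 and 0.44 on the log2 scale, and E2F5 rose by 0.89.

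Of 22 proliferation genes, 16 were lower, 0 were higher and 6 did not pass the test (edgeR), with a median log2 fold change of -0.22 and a lowest value of -1.09. For all genes tested the median was 0.02, with 22.1% lower and 22.4% higher. MKI67, a marker of cycling cells, fell from 562 ± 70.3 to 418 ± 12.3 CPM (log2 fold change -0.43, edgeR adjusted p = 1.75e-08). RRM2, the subunit of ribonucleotide reductase made in S phase, fell from 499 ± 18.9 to 234 ± 3.71 CPM (log2 fold change -1.09). CDC25C, MCM3, TYMS and MCM6 fell by 0.49, 0.45, 0.44 and 0.40 on the log2 scale. The list shares CCNB1 and CCNB2 with the cyclins and CDC20 with the turnover genes, as E2F1 is shared by the E2Fs and the CIP/KIP regulators.

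**Figure D4:**
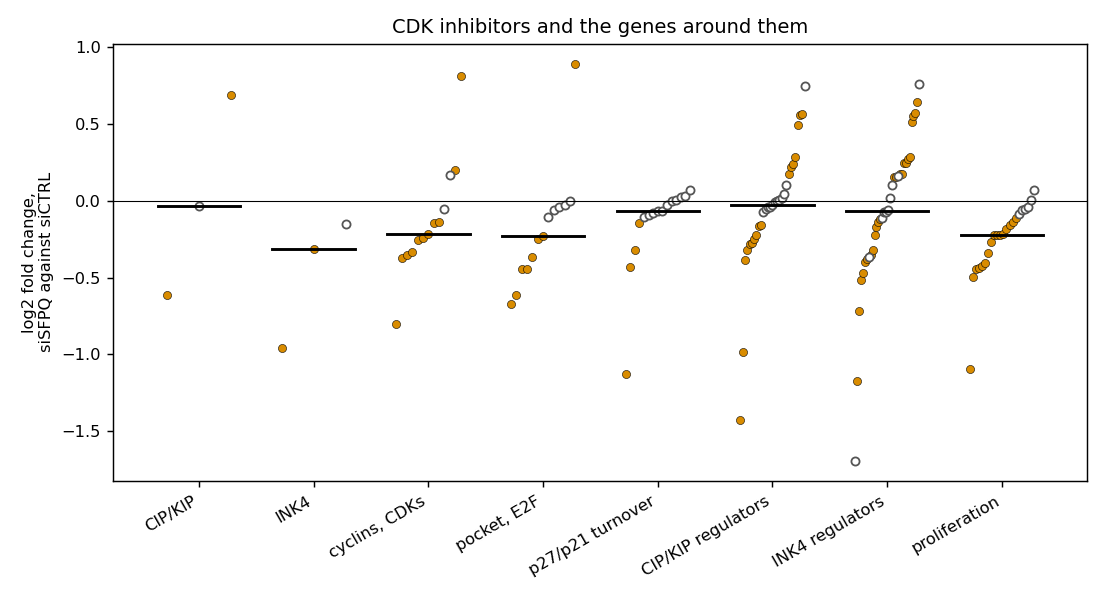
Log2 fold change (siSFPQ against siCTRL) of each tested gene in the CDK inhibitor families and in the lists around them, ordered within a list. Filled points have an edgeR adjusted p under 0.05, open points do not, and lines mark medians, which are -0.22 for both the proliferation genes and the cyclins and CDKs.

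Among 29 transcription regulators of the CIP/KIP genes, 7 were higher, 10 were lower and 12 did not pass the test, with a median log2 fold change of -0.03. Over all genes tested, 22.4% were higher and 22.1% lower. The share of higher regulators was near this background, and that of lower ones was above it. Of the 29 regulators, 27 had a mean of at least 1 CPM, as had 15641 of the 29022 genes tested, so these shares are not of like genes. MYC, a repressor of CDKN1A that acts through ZBTB17, rose from 41.6 ± 1.38 to 61.6 ± 2.89 CPM (log2 fold change 0.57), and NOTCH1 rose by 0.50 on the log2 scale. MYCN (-1.43), TP73 (-0.98) and CREBBP (-0.39) fell on the log2 scale. The FOXO factors, which activate CDKN1B, did not pass the test: FOXO3 was at 63.5 ± 4.07 CPM in siCTRL and 63.3 ± 1.45 in siSFPQ, and FOXO1 at 8.59 ± 0.356 and 8.33 ± 0.497 CPM (SD, n = 3 each).

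Of 15 genes for the degradation of p27 and p21, 4 were lower, 0 were higher and 11 did not pass the test (edgeR), with a median log2 fold change of -0.07. Over all genes tested, 22.1% were lower and 22.4% higher. The share of lower turnover genes was near this background, and that of higher ones was below it. All 15 had a mean of at least 1 CPM, as had 15641 of the 29022 genes tested, so the shares are not of like genes. SKP2, the F-box protein that marks p27 for degradation, fell from 136 ± 1.24 to 109 ± 3.61 CPM (log2 fold change -0.32, edgeR adjusted p = 2.06e-08). CUL1, the scaffold of the same ligase, fell by 0.43 on the log2 scale. UBE2R2, a ubiquitin-conjugating enzyme of the CDC34 type, fell from 143 ± 7.10 to 65.5 ± 2.50 CPM (log2 fold change -1.13), and CUL4B fell by 0.14 on the log2 scale, a call lost with library size alone (-0.08, edgeR adjusted p = 0.0863) and without siSFPQ replicate 1 (edgeR adjusted p = 0.0595). CKS1B, the partner of SKP2, was at 81.3 ± 3.11 and 77.6 ± 3.20 CPM and did not pass the test.

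Of 35 genes listed as regulators of the INK4 genes, 34 were tested, with 12 higher, 12 lower and 10 not past the test. Over all genes tested, 22.4% were higher and 22.1% lower. The median log2 fold change of the list was -0.07. The list also holds KCNQ1OT1 and ZFP57, which are tied to imprinting and not to the INK4 genes, and neither passed the test. Of the Polycomb proteins, which silence the CDKN2A and CDKN2B locus, EZH2 fell from 32.6 ± 1.38 to 23.5 ± 2.27 CPM (log2 fold change -0.47, edgeR adjusted p = 1.32e-07) and BMI1 fell by 0.17 on the log2 scale, whereas PHC2 rose by 0.55. The DNA methyltransferase DNMT3A fell from 43.9 ± 1.77 to 19.5 ± 0.473 CPM (log2 fold change -1.17), the largest fall in this list among genes that passed the test. ID4 and ID3, which block bHLH transcription factors, rose by 0.64 and 0.57 on the log2 scale, and ID2 and the activator ETS2 fell by 0.72 and 0.52.

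The surroundings of the members in the genome were examined because neighbouring genes may share reads or change with them. Within 50 kb of a member, 41 genes were annotated, CDKN2A and CDKN2B as neighbours of each other included, and 20 of them were tested. FAF1, which encodes an adaptor that binds FAS, lies on the opposite strand 478 bases from CDKN2C, so that the genes point away from each other. FAF1 had 3940, 3532 and 3560 counts in siCTRL and 376, 465 and 451 in siSFPQ, far below in every library. Its level fell from 80.5 ± 5.02 to 9.38 ± 0.792 CPM (SD, n = 3 each), or by 3.10 on the log2 scale (standard error 0.062, edgeR adjusted p = 6.62e-29), which also met the stricter rule. The exons of FAF1 and CDKN2C do not overlap.

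Beside CDKN1B, APOLD1 (log2 fold change -0.69) and GPR19 (-0.31), whose span overlaps that of CDKN1B on the opposite strand, fell with it (edgeR adjusted p = 2.59e-05 and 0.0177), and CREBL2 (-0.05) did not pass the test. Beside CDKN1C, which did not change detectably, SLC22A18 rose from 12.2 ± 1.12 to 19.2 ± 0.368 CPM (log2 fold change 0.65) and PHLDA2 by 0.25 on the log2 scale, while SLC22A18AS (0.32) and KCNQ1 (0.08) did not pass the test. Beside CDKN2D, KRI1, which lies 429 bases away on the same strand, rose from 33.1 ± 1.19 to 46.98 ± 0.726 CPM (log2 fold change 0.50, edgeR adjusted p = 2.02e-10) and ATG4D fell by 0.23 on the log2 scale, while SLC44A2 (0.04), AP1M2 (-0.06) and S1PR5 (0.03) did not pass the test. Beside CDKN1A, the tested neighbours RAB44 (-1.21) and DINOL (-0.14) had under 1 CPM and did not pass the test, nor did the lncRNA genes ENSG00000256658 (0.00) and ENSG00000257004 (0.61) near CDKN1B. The calls of GPR19, PHLDA2 and ATG4D were lost when single libraries were left out (adjusted p up to 0.0826, 0.0984 and 0.184, edgeR), those of PHLDA2 and ATG4D also with DESeq2 (adjusted p = 0.0736 and 0.0576) and those of GPR19 and ATG4D with library size alone (edgeR adjusted p = 0.0614 and 0.113), and without siCTRL replicate 3 RAB44 (-1.67) and SLC22A18AS (0.44) passed the test.

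**Figure D5:**
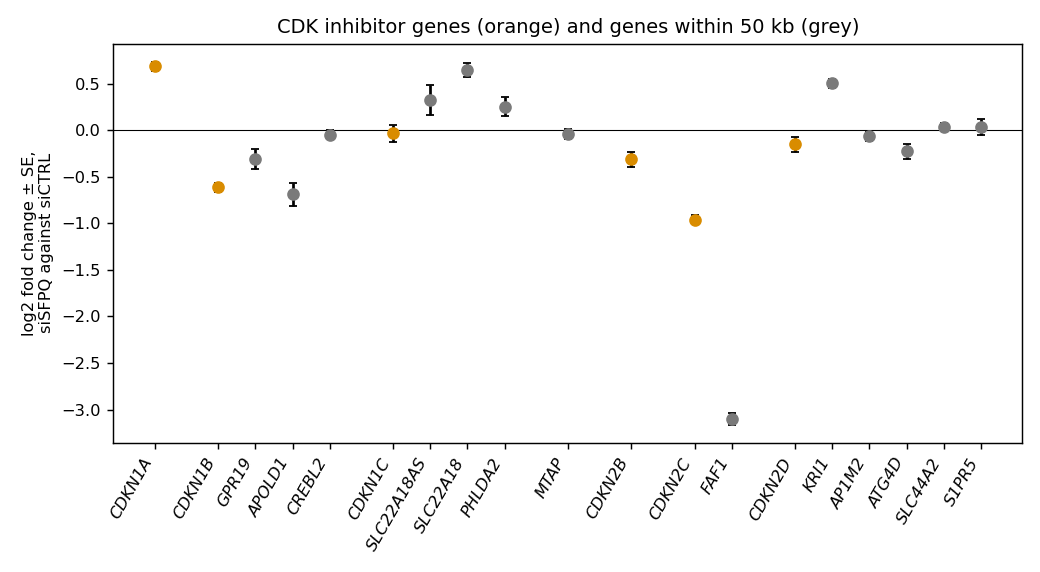
Log2 fold change ± standard error of the tested members (orange) and of the genes within 50 kb that had a mean of at least 1 CPM (grey), grouped by member. FAF1, beside CDKN2C, lies at -3.10, and the other neighbours shown lie between -0.69 and 0.65.

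SFPQ itself had 21753 to 23139 counts in siCTRL and 3140 to 3863 in siSFPQ, a log2 fold change of -2.73, which fits the labels. Total counts on genes were 43469321 to 47119203 per library. Of 10 mesenchymal and osteosarcoma markers, 9 were tested, and 2 of these were higher and 4 lower in siSFPQ. The sum of the 10 markers was 7915 to 8540 CPM in siCTRL and 6800 to 6917 CPM in siSFPQ. VIM and S100A4 were the higher ones, and COL1A1, SPARC, CDH2 and FN1 the lower ones. COL1A1, SPARC, FN1 and VIM were the most abundant. COL1A2 and ALPL were low, with means of 0.961 and 3.43 CPM over all libraries, and TWIST1 had 0 counts in every library. Of 12 markers of other cell types, 10 were tested, and 6 of these were higher and 1 lower in siSFPQ. The shares over all genes tested were 22.4% higher and 22.1% lower. The sum of the 12 markers was 336 to 353 CPM in siCTRL and 739 to 807.5 CPM in siSFPQ. It consisted mainly of KRT8 and KRT18, while CD3E had at most 3 counts in every library. The part of these markers in the values of the CDK inhibitors was not tested.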

How the data were processed

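Poly(A) RNA of 3 siCTRL and 3 siSFPQ cultures was sequenced as paired-end reads. The authors deposited raw counts per gene for GRCh38. The submitters' processing notes name FastQC, STAR 2.7.9a and DESeq2. The strand setting of the counting is not given in the sources used here. Gene identifiers were matched to GENCODE 44 (99.67% of 60664).

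Genes with at least 10 counts in total (29022) entered the quasi-likelihood test of edgeR 4.0.16 (R 4.3.3) after TMM normalisation, with Benjamini-Hochberg adjustment over all genes tested. Genes were called at an adjusted p under 0.05, and the stricter rule asked in addition for a log2 fold change over 1.5 or under -1.5. CPM values were scaled by TMM. Total counts were 43469321 to 47119203 per library. Alternatives were DESeq2 1.42.0, other filters and scalings, a replicate block and leaving out each library. Canonical transcript length was added after the data were seen. Named genes are the members, SFPQ, up to 6 genes per list with the largest changes among those that passed the test at a mean of at least 1 CPM, a fixed set of regulators, tested genes within 50 kb of a member, and the 3 genes most like CDKN1A and CDKN2C. The cell type markers were named after their values were seen. Some genes are not reported here. The members and lists were chosen with earlier results of these data known. Intervals of counts cover counting error only.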

Additional observations from a re-analysis of the deposited data

How the results depend on the processing

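The calls of the CDK inhibitors (1 higher, 3 lower, 0 past the stricter rule) were the same under every alternative run, and leaving out single libraries moved the log2 fold change of CDKN1A between 0.64 and 0.74 and that of CDKN2C between -1.0 and -0.90. CDKN1C, which was not called, was at 0.028 with library size alone and between -0.12 and 0.02 with single libraries left out. The genes higher by the stricter rule numbered 1609, against 967 after the filterByExpr filter, which tests fewer genes, and 1203 to 1686 with single libraries left out. With library size alone, 2 turnover genes (0 otherwise) and 1 proliferation gene (0 otherwise) were higher, and the median of all genes moved from 0.02 to 0.08. The cause was not tested for the turnover genes, of which 3 to 6 were lower with single libraries left out.

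Genes that were not called changed sign with library size alone (FOXO1 0.021, FOXO3 0.059, CREBL2 0.016, MTAP 0.024), with filterByExpr (FOXO3 0.00) or with every gene with a count (ENSG00000256658 -0.007). With single libraries left out, the ranges were -0.107 to 0.003 for FOXO1, -0.032 to 0.05 for FOXO3, -0.704 to 0.396 for CDKN2B-AS1, -0.479 to 0.093 for DINOL, -0.145 to 0.41 for KCNQ1, -0.1 to 0.036 for MTAP, -0.001 to 0.065 for SLC44A2 and -0.029 to 0.08 for S1PR5.

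The labels do not say whether equal replicate numbers mark a pair. Deviations of libraries with the same number had correlations of -0.025, 0.07 and 0.036 over 15641 genes. For libraries with different numbers the correlations ran from -0.072 to 0.035. With 3 libraries per condition, such values cannot exclude a pairing. With a replicate block, CDKN1A was at 0.68, CDKN1B at -0.61, CDKN2B at -0.31 and CDKN2C at -0.96, 7 turnover genes were lower instead of 4, and ENSG00000256658 was at -0.057. The depth limits what can be said of CDKN2A and of lncRNA genes with few counts.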

Other observations

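Of 9 other genes named for CDK inhibition, 3 were higher, 4 were lower and 2 did not pass the test (edgeR), with a median log2 fold change of -0.12. By the same test, 22.4% of all genes tested were higher and 22.1% lower. WEE1, the kinase that holds CDK1 inactive, and CDKN3, a phosphatase of CDK2, fell by 0.39 and 0.30 on the log2 scale. CDK2AP1 fell by 0.17. CDKN2AIPNL rose by 0.33, and CDKN2AIP and CABLES2 rose by 0.23 each. The call of CDKN2AIP was lost without siSFPQ replicate 2 (edgeR adjusted p = 0.084).

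The genes whose pattern over the 6 libraries was most like that of CDKN1A, by Euclidean distance of log2 CPM centred on the siCTRL mean among 9807 protein-coding genes, were TRNP1 (distance 0.0761), SLC48A1 (0.0948) and INKA2 (0.103). For CDKN2C they were LRP5 (0.0838), GPC1 (0.0908) and CCM2 (0.0933).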
